A study of Mus musculus with 12 samples.

Results

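The effect of palmitic acid was measured in RAW264.7 cells, a virus-transformed mouse macrophage line, that had also received recombinant FABP4. The comparison takes 6 of the series' 12 arrays, chosen by their labels: 3 of cells given 0.2 mM palmitic acid together with 200 nM FABP4 (PA+FABP4 arrays) and 3 of cells given 200 nM FABP4 alone (FABP4 arrays). All cells were incubated for 24 h in medium with 0.5% BSA free of fatty acids, and were grown in medium with 10% heat-inactivated serum. The other 6 arrays, 3 without either agent (control) and 3 with 0.2 mM palmitic acid alone, entered the estimate of the spread and gave the effect of palmitic acid without added FABP4. The labels name no vehicle for either agent. Whether arrays of a group stem from separate cultures is not stated in the labels, so each p-value reflects only the spread among these samples, and that spread may be technical.

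Palmitic acid is the main saturated fatty acid of plasma. Inside a macrophage it is joined to coenzyme A and then stored as triglyceride in lipid droplets, passed to mitochondria through the carnitine shuttle, or built into membrane lipids and ceramides. Fatty acids also bind PPAR transcription factors, which switch on genes of lipid storage and oxidation, while the LXR and SREBP factors control cholesterol export and the synthesis of fatty acids and sterols. An excess of saturated fatty acids is known to stress the endoplasmic reticulum (ER) of macrophages. FABP4 is a carrier of fatty acids in the cytosol of adipocytes and macrophages that adipocytes also release, and here it was added from outside.

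Labelled RNA was hybridised to 1-colour Agilent arrays with 59305 non-control spots, of which 42.8% to 46.7% were well above background on each of the 12 arrays and 0 were saturated. A level is given below as log2 of the processed spot intensity minus the array's 75th percentile, so that 0 is the level at that percentile. Changes are log2 fold changes ± SE between the means of 3 arrays each, from limma fitted to all 12 arrays, and p-values are adjusted by Benjamini-Hochberg over 17596 genes, with a gene called at an adjusted p under 0.05. The median SE was 0.08, and the number of arrays limits this precision. FABP4 array 1 lay on slide 1 with the 3 controls, and the other 8 arrays lay on slide 2. FABP4 array 1 differed from arrays 2 and 3 by a median of 0.149 per gene in either direction, against 0.089 between arrays 2 and 3. Fitting the slide as a fixed term, called the slide block below, therefore gives the change within slide 2, of the 3 PA+FABP4 arrays against FABP4 arrays 2 and 3. Within slide 2 these 2 FABP4 arrays lay in the upper row and the PA+FABP4 arrays in the lower row, so row and palmitic acid cannot be told apart there. FABP4 array 1 lay in the lower row of slide 1, so its difference from FABP4 arrays 2 and 3 mixes slide with row. All 11 macrophage markers checked, among them Adgre1, Cd68, Csf1r and Spi1, were well above background on the 6 arrays, as were 3 of 8 neutrophil markers (S100a8, Elane and Camp), 2 of 5 dendritic cell markers (Zbtb46 and Siglech), 2 of 4 lymphocyte markers (Cd3e and Cd79a), 1 of 6 fibroblast markers and 0 of 5 adipocyte markers. Mpo, Ly6g, S100a9, Xcr1, Clec9a and Ncr1 were so on none of the 6.

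Palmitic acid with FABP4 changed 670 of 17596 genes (3.81%), with 504 rises (2.86% of the genes tested) and 166 falls (0.943%). Most changes were small: 21 of the rises and 1 of the falls exceeded 1 on the log2 scale. The values of the PA+FABP4 and FABP4 arrays did not overlap for any of the 670, as for 4619 genes (26.3%) in all, and 3674 genes had an unadjusted p under 0.05. The balance between rises and falls depended on the scaling. Of the called genes 75.2% rose with the main scaling, 56.4% with quantile normalization (393 up and 304 down), 59.9% with the median of the tested genes as reference (443 and 296), 47.1% with the 75th percentile of the probes detected on all arrays (386 and 434) and 42.1% with no scaling (67 and 92). The main scaling and the first 3 of these others shared 322 rises and 154 falls. Of 170 called genes with other tested probes, 141 had the same sign on all of them. In 3 a probe went the opposite way at an unadjusted p under 0.05.

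Under the slide block 590 genes (3.35%) were called, 489 up (2.78%) and 101 down (0.574%). Of these 454 were among the 670, and the 216 genes called without the block alone kept their sign with it. The count fell to 247, 261 and 339 without PA+FABP4 array 1, 2 or 3, to 298 without FABP4 array 2 and to 452 without control array 3. It was 588 without FABP4 array 1, and 203 of the 670 genes passed whichever array was left out. Where a gene named below lost its call in one of these fits, the array is given beside it.

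**Figure D1:**
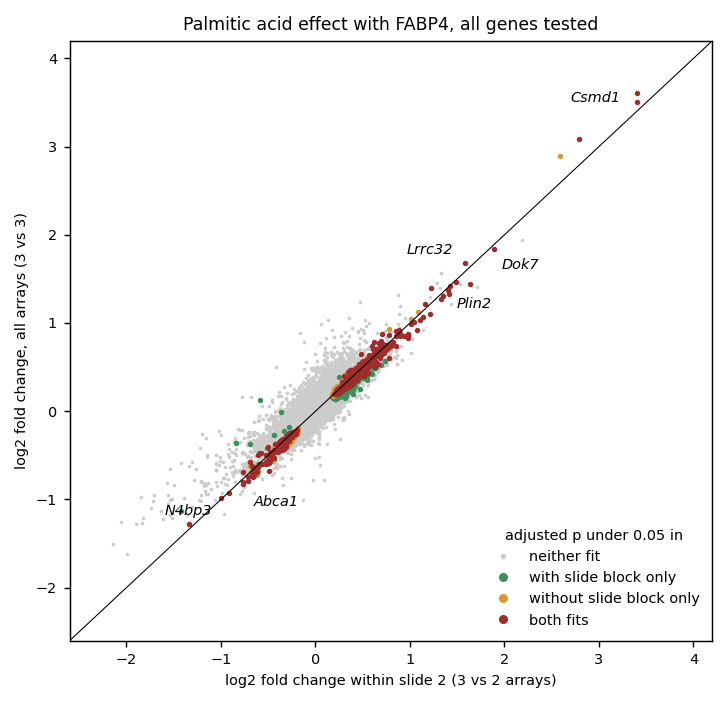
Log2 fold change of each of the 17596 genes over all 6 arrays (vertical axis) against the change within slide 2 (horizontal axis, 3 PA+FABP4 arrays against FABP4 arrays 2 and 3), coloured by the fit in which the adjusted p was under 0.05, with the line of equal values. The genes called in both fits number 454, with Dok7 at 1.83 and 1.89, Plin2 at 1.37 and 1.40, and Abca1 at -0.83 and -0.77.

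Among genes of fatty acid storage and mitochondrial entry, Plin2, Cpt1a and Hilpda each rose more than 2-fold. Plin2 encodes perilipin 2, the coat protein of lipid droplets in macrophages. Its level was 7.02, 6.89 and 6.97 on the FABP4 arrays and 8.40, 8.33 and 8.26 on the PA+FABP4 arrays, so every PA+FABP4 array lay above every FABP4 array. Plin2 rose 2.58-fold (1.37 ± 0.06, adjusted p = 2.42e-06). Mitochondrial entry of long-chain fatty acids depends on carnitine palmitoyltransferase 1, encoded by Cpt1a. Cpt1a stood at 0.34, 0.28 and 0.23 without and at 1.78, 1.77 and 1.70 with palmitic acid. The groups were again apart, and Cpt1a rose 2.76-fold (1.46 ± 0.06, adjusted p = 8.25e-07). Hilpda encodes a small lipid droplet protein that inhibits the triglyceride lipase of fat stores and is a classical target of hypoxia-inducible factors. Its FABP4 arrays read 4.70, 4.64 and 4.73 and its PA+FABP4 arrays 6.12, 6.08 and 6.12, a spread far below the gap between them. Hilpda rose 2.67-fold (1.41 ± 0.05, adjusted p = 7e-07), with 1.37 on its other probe.

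The core of the hypoxia response element, ACGTG read on either strand, stands in the Hilpda promoter, and it is shown because Hilpda joins the lipid droplet and hypoxia genes described here. The stretch lies at chr6:29272558-29272612 on the plus strand of GRCm38.p6 and comes from RefSeq; it reads 5′ to 3′ along the gene, with the core in capitals. Of 32851 promoter windows, each the 250 bases before a gene's start, 16.6% hold the core on either strand, and a match is no evidence of binding.
Hilpda: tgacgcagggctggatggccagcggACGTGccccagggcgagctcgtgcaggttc

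Within slide 2 the changes of these 3 genes were 1.40, 1.49 and 1.42, and they passed with only the 5 arrays compared on that slide (adjusted p = 0.0131, 0.00522 and 0.00522 by limma). Palmitic acid array 3, in the lower row, differed from palmitic acid arrays 1 and 2, in the upper row, by 0.10 for Plin2, -0.01 for Cpt1a and 0.04 for Hilpda, with 1 array against 2 and no test. In the mm9 build named by the file headers the probes read chr4:86302847-86302906 for Plin2, chr19:3385374-3385433 for Cpt1a and chr6:29225127-29225186 for Hilpda.

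Over all genes 2.86% rose and 0.943% fell, the shares to set beside each list count below. For list counts at an unadjusted p under 0.05 the count to set beside them is 3674 of 17596 genes. Of 20 tested lipid droplet and triglyceride genes 4 rose and 0 fell, with a median of 0.06 against 0.05 over all genes. Beside Plin2 and Hilpda these were Soat1, which makes cholesteryl esters (0.37 ± 0.07, adjusted p = 0.016), and Lipa, the lysosomal acid lipase (0.22 ± 0.04, adjusted p = 0.0261). The call of Soat1 ended without FABP4 array 2 or PA+FABP4 array 1 or 2, and that of Lipa without FABP4 array 2 or 3 or any PA+FABP4 array, so the count is 2 without FABP4 array 2 or PA+FABP4 array 1 or 2. Cpt1a was the sole rise among the 26 tested members of the list of fatty acid oxidation and PPAR targets, whose median was 0.04. Plin2, Hilpda, Fabp4 and Fabp3 were counted under other lists, so this is no count of all PPAR targets. Echs1, a hydratase of mitochondrial beta-oxidation, fell by 0.28 ± 0.05 (adjusted p = 0.0225), a call that ended without FABP4 array 2 or any PA+FABP4 array. The PPAR targets Angptl4 and Pdk4 were not tested, since no group had them well above background on all 3 arrays.

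Among 17 genes of fatty acid binding, uptake and activation, Fabp4 and Fabp3 rose and the others did not pass. The cells' own Fabp4 transcript stood at 1.74, 1.61 and 1.54 on the FABP4 arrays and at 2.39, 2.33 and 2.39 on the PA+FABP4 arrays. All 3 arrays with palmitic acid lay above, and Fabp4 rose 1.67-fold (0.74 ± 0.07, adjusted p = 7.12e-04), with 0.80 within slide 2. The probe lies at chr3:10204452-10204511 (mm9). Fabp3, the heart-type binding protein, read 3.54, 3.31 and 3.42 against 4.04, 4.03 and 4.10. It rose by 0.63 ± 0.07 (adjusted p = 8.82e-04), and the groups did not overlap. Fabp5, the epidermal type, had 0.22 ± 0.06 (adjusted p = 0.0754) and passed with the slide block (0.28, adjusted p = 0.0235). The fatty acid translocase Cd36 had 0.13 ± 0.06 and the acyl-CoA synthetase Acsl1 0.02 ± 0.07 (adjusted p = 0.259 and 0.906), and the sign of Acsl1 turned with the scaling.

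**Figure D2:**
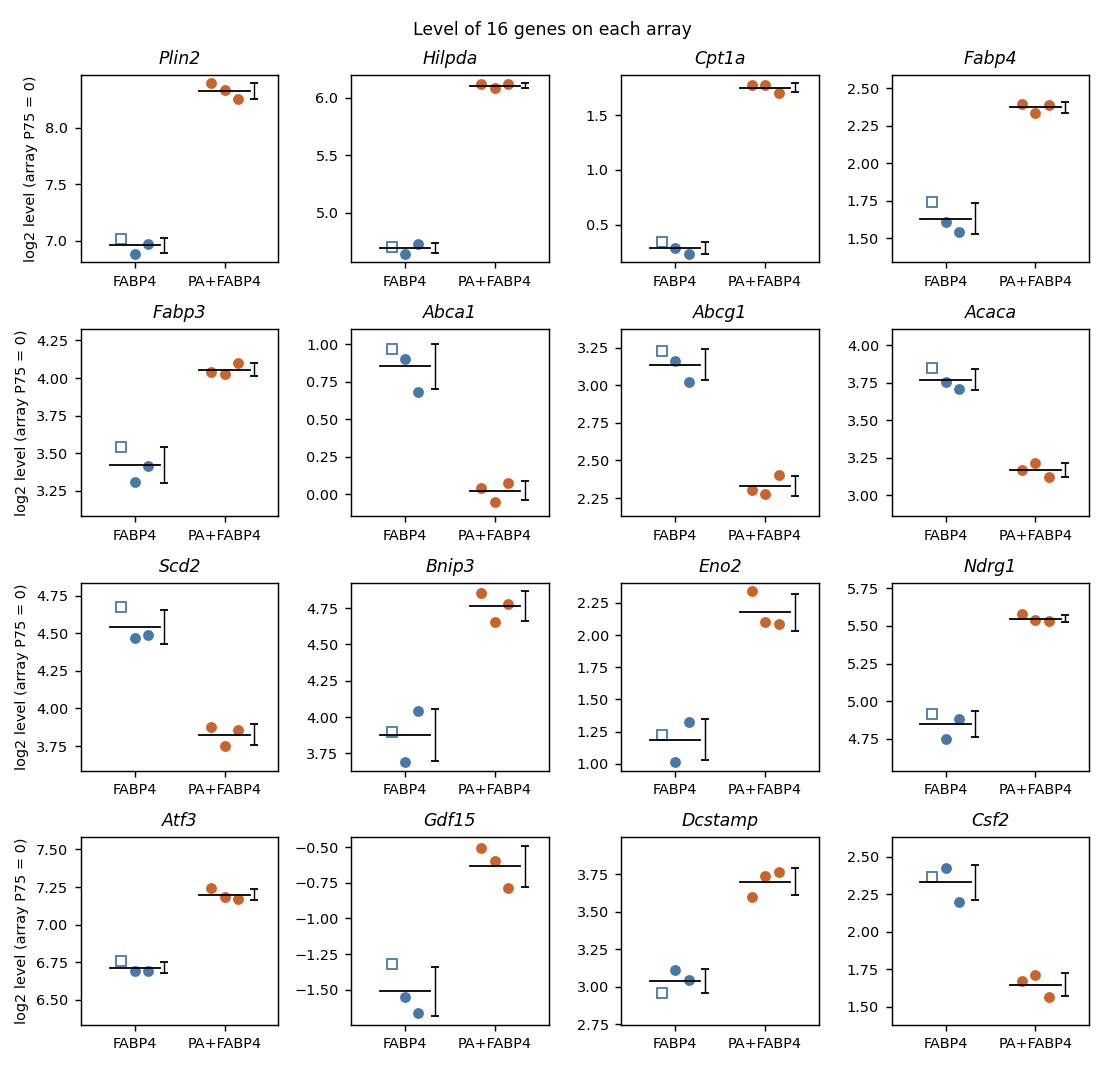
Level of 16 genes on each of the 6 arrays, in log2 units relative to the array's 75th percentile; points are arrays, open squares FABP4 array 1 on slide 1, lines group means and bars the SD (n = 3). In each panel the FABP4 and PA+FABP4 arrays do not overlap, from Plin2 (6.89 to 7.02 against 8.26 to 8.40) to Csf2 (2.20 to 2.42 against 1.57 to 1.71); the vertical axes span different ranges.

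Some genes of cholesterol export and of fatty acid synthesis fell. Abca1, which loads cholesterol on apolipoprotein A-I, stood at 0.97, 0.90 and 0.68 on the FABP4 arrays and at 0.04, -0.05 and 0.07 on the PA+FABP4 arrays. Abcg1, which exports cholesterol to HDL, read 3.23, 3.16 and 3.02 against 2.30, 2.28 and 2.40. For both exporters every PA+FABP4 array lay below every FABP4 array. Abca1 fell by 0.83 ± 0.08 and Abcg1 by 0.81 ± 0.07 (adjusted p = 5.35e-04 and 2.65e-04), with -0.77 and -0.76 within slide 2. They were the 2 falls among 13 tested LXR targets and efflux genes, of which 0 rose and whose median was 0.04.

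Of 18 tested genes of fatty acid synthesis, elongation and desaturation 4 fell and 0 rose, with a median of -0.08. Acaca, the acetyl-CoA carboxylase that commits carbon to fatty acid synthesis, read 3.85, 3.75 and 3.71 without and 3.17, 3.21 and 3.12 with palmitic acid. It fell by 0.60 ± 0.05 (adjusted p = 2.25e-04), with no overlap, and its 3 other probes gave -0.67, -0.65 and -1.38. Scd2, a desaturase that makes monounsaturated fatty acids, stood at 4.68, 4.47 and 4.49 against 3.87, 3.75 and 3.86. The PA+FABP4 arrays were again the lower 3, and Scd2 fell by 0.72 ± 0.08 (adjusted p = 8.82e-04). Fasn, which encodes fatty acid synthase, fell by 0.63 ± 0.11 (adjusted p = 0.0117), a call that ended without PA+FABP4 array 1 or 2. Elovl6, the elongase of palmitate, fell by 0.56 ± 0.12 (adjusted p = 0.0317), but not with the slide block (-0.44, adjusted p = 0.0608) nor without control array 3, FABP4 array 1 or 2 or PA+FABP4 array 1 or 3. Without PA+FABP4 array 1 the list held 2 falls. Scd1, the other main desaturase of macrophages, had -0.27 ± 0.07 (adjusted p = 0.066), and the regulator Srebf1 -0.15 ± 0.30.

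Among 25 genes of cholesterol synthesis and uptake 2 rose and 1 fell, with a median of 0.12. Srebf2, which encodes the transcription factor of the pathway, rose by 0.38 ± 0.07 (adjusted p = 0.0129). Its other probe gave 0.13 (unadjusted p = 0.0535 by limma). The call of Srebf2 ended without PA+FABP4 array 1 or 2. The list held 0 rises without either of these arrays, and 0 falls without PA+FABP4 array 1. Without FABP4 array 2 or 3 the list held 1 rise. Hmgcs1, an early enzyme of the pathway that SREBP2 controls in other settings, had 0.08 ± 0.06 (adjusted p = 0.476). Insig1, which holds SREBP in the ER, had 0.25 ± 0.11 (adjusted p = 0.242) and passed within the slide (0.39, adjusted p = 0.0184). Its FABP4 array 1 stood at 0.21, above FABP4 arrays 2 and 3 at -0.32 and -0.16.

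Sphingolipid genes gave 2 rises and 2 falls among 25, and 1 of each without control array 3, FABP4 array 2, palmitic acid array 3 or any 1 PA+FABP4 array. Sphk1, the kinase that turns sphingosine into sphingosine 1-phosphate, had levels of 0.25, 0.36 and 0.40 on the FABP4 arrays and 1.14, 1.04 and 1.06 on the PA+FABP4 arrays. It rose by 0.74 ± 0.07 (adjusted p = 5.37e-04), the groups lying well apart. Cers5, a ceramide synthase that prefers palmitoyl-CoA, fell by 0.30 ± 0.04 (adjusted p = 0.00658).

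Hypoxia response genes formed the list with the most rises, among lists chosen with earlier results of these data known. Of 25 tested, 9 rose and 0 fell, with a median of 0.29 against 0.05 over all genes. Quantile normalization gave 8 rises and no scaling 4. With the slide as a block the count was 9 again, while it was 4 without FABP4 array 2 or PA+FABP4 array 1 and 5 without PA+FABP4 array 2 or 3, and 4 rises passed whichever array was left out. These 4 were Bnip3, Bnip3l, Ndrg1 and Bhlhe40. Bnip3, a mitochondrial receptor for mitophagy, read 3.90, 3.69 and 4.04 on the FABP4 arrays against 4.86, 4.65 and 4.78, and rose by 0.89 ± 0.11 (adjusted p = 0.00303). Its relative Bnip3l rose by 0.42 ± 0.06 (adjusted p = 0.00658). Ndrg1, a stress-induced growth regulator, stood at 4.92, 4.75 and 4.88 against 5.58, 5.54 and 5.53 and rose by 0.70 ± 0.06 (adjusted p = 4.02e-04). Bhlhe40, a transcriptional repressor, rose by 0.63 ± 0.05 (adjusted p = 2.25e-04). For these 4 genes no PA+FABP4 array overlapped the FABP4 arrays. Vegfa, the angiogenic growth factor, rose by 0.34 ± 0.06 (adjusted p = 0.0164), and its call ended without FABP4 array 2 or PA+FABP4 array 1 or 2. The other Vegfa probe gave 0.21 (unadjusted p = 0.0842 by limma).

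Adm, which encodes the vasodilator peptide adrenomedullin, had levels of -3.05, -2.92 and -2.25 without and -1.61, -2.13 and -1.67 with palmitic acid. The groups did not overlap, although PA+FABP4 array 2 came close to FABP4 array 3. Adm rose by 0.93 ± 0.20 (adjusted p = 0.0341), but not with the slide block (0.78, adjusted p = 0.0813), nor without control array 2 or 3, FABP4 array 1 or 2, palmitic acid array 3 or PA+FABP4 array 1 or 3.

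Of 23 tested genes of glycolysis and glucose uptake 6 rose and 0 fell, with a median of 0.16. Quantile normalization gave 5 rises, no scaling 1 and the 8 arrays of slide 2 alone 2. Eno2, the neuronal enolase that hypoxia induces in many cells, read 1.22, 1.01 and 1.32 on the FABP4 arrays and 2.34, 2.10 and 2.08 on the PA+FABP4 arrays. It rose by 0.99 ± 0.10 (adjusted p = 7.87e-04). Hk3, the myeloid hexokinase, stood at 3.76, 3.75 and 3.80 against 4.15, 4.24 and 4.27 and rose by 0.45 ± 0.05 (adjusted p = 0.00121). Both genes kept their groups apart and passed whichever array was left out. The lactate exporter gene Slc16a3 rose by 0.43 ± 0.07 (adjusted p = 0.0124), a call that ended without FABP4 array 2 or PA+FABP4 array 1. Pdk1, a kinase that holds pyruvate dehydrogenase off, rose by 0.70 ± 0.13 (adjusted p = 0.0164), a call that ended without FABP4 array 2 or PA+FABP4 array 1 or 3. Without FABP4 array 2 or PA+FABP4 array 1 the list held 2 rises. Among 30 tested oxidative phosphorylation genes limma called 0, with 2 at an unadjusted p under 0.05, and their median was 0.04. The count was 0 also with the slide as a block, under each of the 4 other scalings and with each array left out.

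The ACGTG core also stands in the promoter windows of other genes of these lists, and 3 of them are shown because these lists held many of the rises. Capitals mark the core or its reverse complement CACGT, from RefSeq. The Bnip3 stretch lies at chr7:138909584-138909639 on the minus strand (GRCm38.p6), and its capitals hold the core on both strands. The Hk3 stretch lies at chr13:55021512-55021566 on the minus strand and the Slc16a3 stretch, with the core at 2 places, at chr11:120949015-120949066 on the plus strand.
Bnip3: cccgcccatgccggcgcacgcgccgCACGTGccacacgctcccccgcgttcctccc
Hk3: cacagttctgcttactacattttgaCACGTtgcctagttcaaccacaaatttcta
Slc16a3: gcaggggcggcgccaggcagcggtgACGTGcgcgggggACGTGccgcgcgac
Of the 9 hypoxia genes that rose 6 were in the promoter table and 4 of them held the core, against 8 of 13 that were in the table and did not pass. For glycolysis the counts were 3 of 6 and 9 of 16. So the core was also common among members that did not pass.

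**Figure D3:**
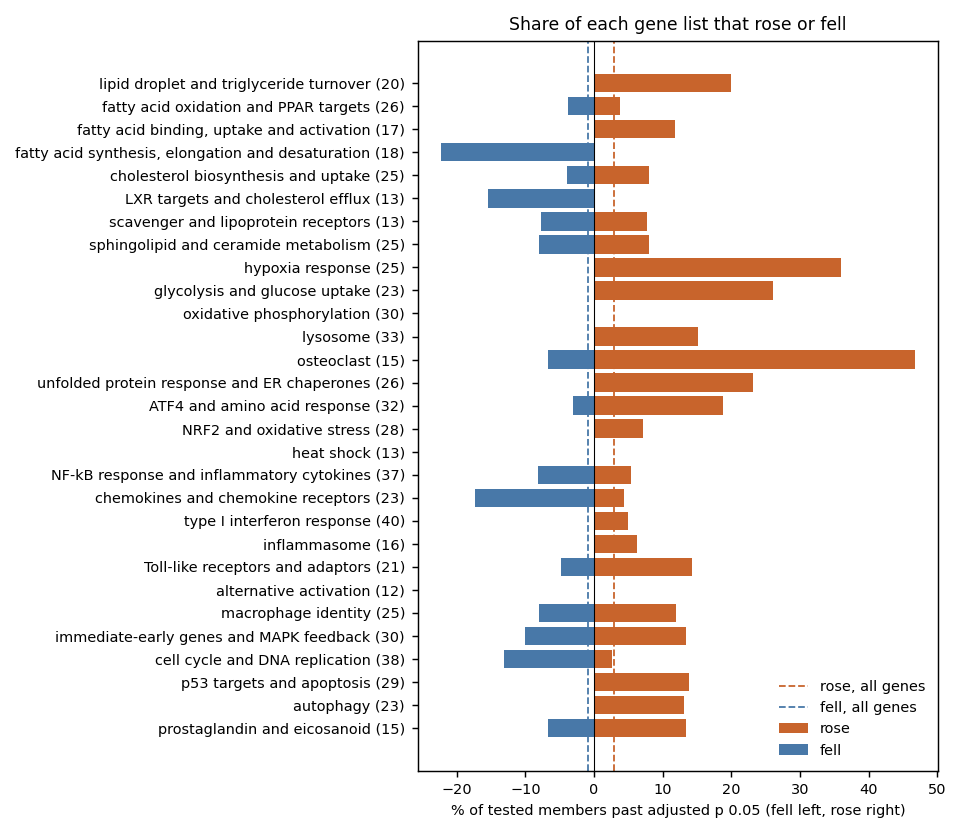
Share of the tested members of each of the 29 gene lists with at least 10 tested members (number tested in brackets) that rose (right) or fell (left) at an adjusted p under 0.05, in percent; dashed lines give the shares over all 17596 genes, 2.86% up and 0.943% down. The longest bars to the right belong to the osteoclast list (7 of 15) and the hypoxia response (9 of 25), and the longest to the left to fatty acid synthesis (4 of 18). Lists and members were chosen with earlier results of these data known, so the bars are no independent test.

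Stress genes of the ER and of the ATF4 pathway rose in part. Among 26 tested genes of the unfolded protein response 6 rose and 0 fell, with a median of 0.09. Quantile normalization gave 4 rises and 1 fall, the 75th percentile of the detected probes 6 and 1, and no scaling 1 and 0. Dnajb9, an ER cochaperone induced by the IRE1 branch, read 1.40, 1.38 and 1.20 without and 2.04, 1.99 and 1.95 with palmitic acid. It rose by 0.66 ± 0.07 (adjusted p = 8.82e-04) and was the sole member that passed whichever array was left out. Sdf2l1, an ER protein, had a call (0.25 ± 0.04, adjusted p = 0.0109) that ended without PA+FABP4 array 2, and without that array the list held 1 rise. It held 2 without PA+FABP4 array 1 and 3 without FABP4 array 2 or 3 or PA+FABP4 array 3. Syvn1, the ubiquitin ligase that degrades ER proteins, rose by 0.35 ± 0.06 (adjusted p = 0.0132), a call that ended without PA+FABP4 array 1 or 2.

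Of 32 ATF4 and amino acid response genes 6 rose and 1 fell, with a median of 0.03. Atf3, a transcription factor induced by many stresses, stood at 6.76, 6.69 and 6.69 on the FABP4 arrays and at 7.24, 7.19 and 7.17 on the PA+FABP4 arrays. It rose by 0.49 ± 0.04 (adjusted p = 4.02e-04). Gdf15, a secreted stress cytokine, read -1.32, -1.55 and -1.66 against -0.51, -0.60 and -0.79 and rose by 0.88 ± 0.13 (adjusted p = 0.00534). Ppp1r15a, which restarts translation by dephosphorylating eIF2alpha, rose by 0.64 ± 0.06, and Slc3a2, the heavy chain of amino acid transporters, by 0.48 ± 0.06 (adjusted p = 5.35e-04 and 0.00162). All 4 kept their groups apart and passed whichever array was left out. The other 2 rises and the fall did not hold without FABP4 array 2 or any 1 PA+FABP4 array, nor the fall with the slide block. Ddit3, which encodes CHOP, had 0.35 ± 0.09 (adjusted p = 0.0584) and passed with the slide block (0.42, adjusted p = 0.0305). The Atf3 promoter holds the amino acid response core TGATGNAA on the opposite strand, where N is any base, in capitals here (chr1:191183411-191183468 on the minus strand of GRCm38.p6, from RefSeq). It was found on either strand in 3.45% of all promoter windows, and the Atf3 stretch is shown because Atf3 was the member with the smallest p.
Atf3: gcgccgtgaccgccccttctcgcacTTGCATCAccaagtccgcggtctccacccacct

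Of 29 p53 targets and apoptosis genes 4 rose and 0 fell, with a median of 0.12. Plk2, a polo-like kinase, had 2.19, 2.02 and 1.94 on the FABP4 arrays and 3.10, 3.03 and 3.12 on the PA+FABP4 arrays. It rose 2.05-fold (1.03 ± 0.08, adjusted p = 1.76e-04). With the 75th percentile of the detected probes 2 fell as well. Mdm2, the ligase that degrades p53, rose by 0.41 ± 0.06 (adjusted p = 0.0073). Without FABP4 array 2 or PA+FABP4 array 1 or 2 these 2 rises remained of the 4. Among 28 NRF2 and oxidative stress genes 2 rose, against 2.86% of all genes, and 0 did with quantile normalization or without FABP4 array 2 or PA+FABP4 array 2. Among 13 heat shock genes limma called 0, with 3 at an unadjusted p under 0.05. The slide as a block gave 0 as well, while quantile normalization and the 75th percentile of the detected probes each gave 2 falls.

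Cell cycle and DNA replication genes gave 5 falls and 1 rise among 38, with a median of -0.11. It was 12 falls with quantile normalization, 8 with the median of the tested genes, 14 with the 75th percentile of the detected probes, 1 with the slide as a block and 0 without PA+FABP4 array 2 or 3. Without PA+FABP4 array 1 or FABP4 array 1 or 3 it was 1, without control array 3, FABP4 array 2 or palmitic acid array 3 it was 2, and without palmitic acid array 2 it was 3. The rise did not pass with the slide block, with quantile normalization or the 75th percentile of the detected probes, or without control array 3 or any 1 FABP4 or PA+FABP4 array. Ccnb1, the mitotic cyclin, had -0.30 ± 0.06 (adjusted p = 0.0208), and its call ended without any 1 of the PA+FABP4 arrays.

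Osteoclast genes, markers of the other fate that RAW264.7 cells take readily, gave 7 rises and 1 fall among 15, with a median of 0.28. Quantile normalization gave 6 rises and 1 fall, and no scaling 1 and 0. Dcstamp (listed on the array under its older name Tm7sf4), whose protein drives cell fusion, stood at 2.96, 3.11 and 3.04 on the FABP4 arrays and at 3.60, 3.74 and 3.77 on the PA+FABP4 arrays. It rose by 0.66 ± 0.06 (adjusted p = 5.35e-04). Atp6v0d2, a subunit of the proton pump, read -0.59, -0.70 and -0.71 against -0.22, -0.01 and 0.10 and rose by 0.62 ± 0.08 (adjusted p = 0.00402). Car2, the carbonic anhydrase that supplies the protons, rose by 0.41 ± 0.06 (adjusted p = 0.00578). These 3 passed whichever array was left out, with no overlap between the groups, and they are all that remained without PA+FABP4 array 1 or 2. Without FABP4 array 2 the list held 4 rises. Ocstamp, a second fusion gene, rose by 0.47 ± 0.08 (adjusted p = 0.0136), a call that ended without either of those arrays. Mmp9, a gelatinase, was the fall (-0.64 ± 0.12, adjusted p = 0.017), well above background on 2 of the 3 PA+FABP4 arrays and named after its values were seen. Its call ended without FABP4 array 2 or PA+FABP4 array 1 or 2. Calcr, the calcitonin receptor of mature osteoclasts, was well above background on none of the 6 arrays. The summed level of 6 osteoclast markers lay between 20.6 and 21.1 times the 75th percentile on the FABP4 arrays and between 27.4 and 29.1 on the PA+FABP4 arrays. The sum weighs bright markers most. It includes Dcstamp and Ctsk, which were called as rises, and Mmp9, which fell, so it does not show a rise of each of the 6. In RNA of a whole culture a change in the number of such cells and in RNA per cell cannot be told apart.

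Lysosome genes gave 5 rises and 0 falls among 33, with a median of 0.15, with 3 rises under quantile normalization, 2 without control array 3, FABP4 array 2 or any 1 PA+FABP4 array and 3 without control array 1, FABP4 array 3 or palmitic acid array 2. Lists can share genes, and Atp6v0d2, counted above among the osteoclast genes, was also among these 5 rises. Gpnmb, a glycoprotein of lysosomes and phagosomes in lipid-laden macrophages, read 5.87, 6.01 and 5.93 without and 6.41, 6.35 and 6.35 with palmitic acid. It rose by 0.43 ± 0.05 (adjusted p = 0.0017), with the 3 PA+FABP4 arrays above. Atg13, which starts autophagosome formation, rose by 0.48 ± 0.05 (adjusted p = 0.00134), and was the rise that held without each array among 3 in 23 autophagy genes. Those 2 other rises ended without FABP4 array 2 or 3 or PA+FABP4 array 2 or 3.

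Macrophage identity genes gave 3 rises and 2 falls among 25, with a median of -0.04, and 2 rises and 0 falls without FABP4 array 2 or any 1 PA+FABP4 array. With the 75th percentile of the detected probes 4 fell. Trem2, the lipid receptor of macrophages that ingest debris, stood at 4.77, 4.62 and 4.57 against 5.08, 5.22 and 5.13 and rose by 0.49 ± 0.06 (adjusted p = 0.00321). Cd68, a late endosomal glycoprotein, rose by 0.35 ± 0.06 (adjusted p = 0.00906). The fractalkine receptor gene Cx3cr1 fell by 0.37 ± 0.07 and the receptor gene of M-CSF, Csf1r, rose by 0.26 ± 0.05 (adjusted p = 0.0245 and 0.0208). Both calls ended without FABP4 array 2 or 3 or any 1 PA+FABP4 array. The other Csf1r probes gave 0.12 and 0.24 (unadjusted p = 0.172 and 0.0389 by limma). The summed level of the 11 macrophage markers was 1507 to 1588 times the 75th percentile on the FABP4 arrays and 1613 to 1709 on the PA+FABP4 arrays. This sum rests on the main scaling, weighs bright markers most and includes the called Cd68 and Csf1r. It does not show a rise of each of the 11. Of the 25 macrophage identity genes 10 had a positive change (40%), against 63.3% of all genes. Stab1, a scavenger receptor, fell by 0.60 ± 0.11 (adjusted p = 0.0189), a call that ended without FABP4 array 2 or 3 or PA+FABP4 array 1 or 3. Among 12 alternative activation genes limma called 0, with 5 at an unadjusted p under 0.05, and 0 with the slide as a block and under the 4 other scalings.

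Of 37 tested NF-kB response and cytokine genes 2 rose and 3 fell, and their median was -0.00098. This count depended on the scaling, with 2 rises and 11 falls under quantile normalization, 2 and 8 with the 75th percentile of the detected probes, 2 and 6 with the median of the tested genes and 0 and 1 with no scaling. Csf2, which encodes the growth factor GM-CSF, stood at 2.37, 2.42 and 2.20 on the FABP4 arrays and at 1.67, 1.71 and 1.57 on the PA+FABP4 arrays. It fell by 0.68 ± 0.07 (adjusted p = 6.76e-04) with no overlap, while Csf3, which encodes G-CSF, rose by 0.36 ± 0.06 (adjusted p = 0.00745). The second rise was Ier3, an early response gene (0.44 ± 0.07, adjusted p = 0.0105). The other 2 falls ended without FABP4 array 2 or any 1 PA+FABP4 array. The classical cytokine genes Tnf, Il1b and Il6 had -0.20 ± 0.06, -0.12 ± 0.05 and -0.07 ± 0.10, and the chemokine gene Ccl2 had 0.11 ± 0.04 (adjusted p = 0.0946, 0.195, 0.702 and 0.196). Tnf read 7.04, 6.90 and 6.88 without and 6.77, 6.76 and 6.67 with palmitic acid. Its groups did not overlap, which held for 26.3% of all genes, and it did not pass with the main scaling.

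Chemokine and chemoattractant receptor genes gave 1 rise and 4 falls among 23, the rise ending without FABP4 array 2. Fpr1, the receptor for bacterial formyl peptides, read 0.91, 0.60 and 0.73 against 0.07, -0.12 and 0.05 and fell by 0.74 ± 0.09 (adjusted p = 0.00175). Its relative Fpr2 fell by 0.41 ± 0.08 (adjusted p = 0.0189), a call that ended without any 1 PA+FABP4 array. Ccl6, a chemokine of macrophages, fell by 0.34 ± 0.05 (adjusted p = 0.0056). Without any 1 PA+FABP4 array 2 falls were left, those of Fpr1 and Ccl6. Among 21 Toll-like receptor genes 3 rose and 1 fell, the fall not passing with the slide block or without control array 1 or 3, FABP4 array 1 or 2, palmitic acid array 2 or any 1 PA+FABP4 array. Tlr13, the sensor of bacterial ribosomal RNA, rose by 0.44 ± 0.06 (adjusted p = 0.00383), and was the rise left without FABP4 array 2 or PA+FABP4 array 2 or 3. Ly96, the MD-2 cofactor of TLR4, rose by 0.44 ± 0.08 (adjusted p = 0.0124), a call that ended without those same 3 arrays. Of 40 interferon response genes 2 rose, with a median of 0.07, and 1 without FABP4 array 2 or 3 or any 1 PA+FABP4 array, that of Rsad2, the antiviral protein viperin (0.32 ± 0.05, adjusted p = 0.00954). Panx1, a channel that releases ATP, was the rise among 16 inflammasome genes (0.37 ± 0.05, adjusted p = 0.00607). With 2.86% of all genes rising, such small counts are not read as results about the interferon or inflammasome list.

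Immediate-early genes and MAPK feedback genes gave 4 rises and 3 falls among 30. Nr4a1, an orphan nuclear receptor, read 1.13, 1.13 and 1.31 against 1.94, 1.67 and 1.85 and rose by 0.63 ± 0.09 (adjusted p = 0.0049). The MAP kinase phosphatase genes went both ways, with Dusp4 0.47 ± 0.07 higher and Dusp2 0.36 ± 0.05 lower (adjusted p = 0.00502 and 0.00317). Klf2, a transcription factor that keeps myeloid cells quiescent, stood at -0.86, -1.03 and -0.93 against -2.07, -1.54 and -1.46 and fell by 0.75 ± 0.14 (adjusted p = 0.0172). PA+FABP4 array 1 was the lowest, and the other 2 PA+FABP4 arrays also lay below the FABP4 arrays. The prostaglandin E2 receptor gene Ptger2 fell by 0.65 ± 0.10 (adjusted p = 0.00658).

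Rises are ranked here by brightest probe among current symbols called also with the slide block and well above background on all 6 arrays. The largest was that of Dok7, an adaptor of the muscle receptor kinase MuSK. Its levels were -0.17, -0.41 and -0.27 on the FABP4 arrays and 1.51, 1.52 and 1.62 on the PA+FABP4 arrays. Dok7 rose 3.56-fold (1.83 ± 0.07, adjusted p = 7e-07), with 1.89 within slide 2. Lrrc32, which encodes GARP, a docking receptor of latent TGF-beta, read -2.17, -1.93 and -1.86 against -0.33, -0.32 and -0.28. It rose 3.20-fold (1.68 ± 0.12, adjusted p = 1.19e-04). Hbegf, a growth factor of the EGF family, rose 2.32-fold (1.22 ± 0.07, adjusted p = 4.95e-05), from -0.18, -0.11 and 0.06 to 1.03, 1.14 and 1.24. For these 3 genes the groups lay far apart, and each passed with the 5 arrays on slide 2 alone (adjusted p = 0.00522, 0.00522 and 0.0358). Crispld2, a secreted protein gene, and the predicted gene Gm13889 rose by 1.40 ± 0.14 and 1.33 ± 0.10 (adjusted p = 7.68e-04 and 1.76e-04). The other Crispld2 probe gave 2.13 (unadjusted p = 9.17e-05 by limma), more than the 1.83 of Dok7. Palmitic acid array 3 stood above palmitic acid arrays 1 and 2 by 0.26 for Lrrc32, 0.15 for Crispld2 and 0.17 for Gm13889, and differed from them by -0.07 for Dok7 and 0.08 for Hbegf. In mm9 the probes lie at chr5:35423495-35423554 for Dok7 and chr7:105650282-105650341 for Lrrc32.

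Pilra, an inhibitory receptor of myeloid cells, and N4bp3 had the largest falls among such genes. Pilra read 1.87, 1.89 and 1.81 on the FABP4 arrays and 0.89, 1.01 and 0.90 on the PA+FABP4 arrays. It fell by 0.93 ± 0.06 (adjusted p = 7.81e-05), with no overlap, and its other probes gave -1.05, -0.78 and 0.34 (unadjusted p = 4.43e-04, 5.9e-05 and 0.118), so 1 probe did not share the direction. N4bp3, a binding partner of a ubiquitin ligase, fell by 0.98 ± 0.15 (adjusted p = 0.00622), from -1.80, -1.62 and -1.87 to -2.93, -2.55 and -2.77. Tmem69, a membrane protein gene, fell by 0.71 ± 0.12 (adjusted p = 0.01).

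Some genes were near or below background without palmitic acid. Csmd1, which encodes a large membrane protein with complement control domains, Defb45, a beta-defensin gene, and the RNA 4930565N06Rik were not well above background on any FABP4 array and were so on all 3 PA+FABP4 arrays; the last 2 were named after their values were seen. Their changes are bounds: the mean of the PA+FABP4 arrays against, per FABP4 array, whichever was higher of the probe's own signal and the dimmest signal still well above background. The PA+FABP4 arrays lay at least 6.32-fold higher for Defb45, 4.06-fold for 4930565N06Rik and 2.75-fold for Csmd1. These genes entered the test through the PA+FABP4 group alone, like 6 of the 670 called genes in all, so no p is given for them. The PA+FABP4 arrays read -2.39, -1.77 and -2.61 for Csmd1, -0.86, -1.80 and -0.51 for Defb45 and -1.48, -0.54 and -3.06 for 4930565N06Rik, the last spreading most. None of these 3 genes was well above background on any of the 3 arrays with palmitic acid alone, and on the controls Defb45 was so on 1 array. These probes sit near the detection limit, and whether they report the named genes was not tested.

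Genes that passed without the slide block but not with it included Mgarp and Ttk. Mgarp, a mitochondrial protein gene, rose by 1.05 ± 0.21 (adjusted p = 0.024), and had 1.01 with the block (adjusted p = 0.0602). Its call ended without FABP4 array 1 or 2 or any 1 PA+FABP4 array. Ttk, a kinase of the mitotic checkpoint, fell by 0.73 ± 0.15 (adjusted p = 0.0277), with -0.61 with the block (adjusted p = 0.0682), and its call ended without FABP4 array 1 or 2 or PA+FABP4 array 2 or 3. Both kept their direction and most of their size.

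The test of whether the palmitic acid effect differed with FABP4 present called 0 of 17596 genes (0%) by limma, with 1218 genes at an unadjusted p under 0.05. It called 0 with each scaling except no scaling (3 genes), 37 with the slide as a fixed block (33 higher and 4 lower with FABP4), 0 with the slide as a random block, 5 without FABP4 array 1, 2 without PA+FABP4 array 3 and 1 without control array 1. In this contrast the controls and palmitic acid alone lie on different slides, so the fit with the block rests on FABP4 array 1 for the difference between slides. The 95% interval of this difference, without adjustment over genes, reached a median of 0.26 to each side, and larger differences than that did not pass the adjusted test. Of the 670 genes called with FABP4, 456 were also called without it, all in the same direction. That is 68.1% of the first set, while 1515 of all 17596 genes were called without FABP4. It is 30.1% of those 1515 genes, while 3.81% of all genes were called with FABP4. Without FABP4 the controls lie on slide 1 and the palmitic acid arrays on slide 2, and the 1515 calls went to 138 with the slide as a fixed block, 78 of them among the 1515, and to 191 with it as a random block. The 2 comparisons share no arrays, though they share the estimate of the spread.

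Side by side, the change with and without FABP4 was 1.37 and 1.42 for Plin2, 1.41 and 1.44 for Hilpda, 1.83 and 1.83 for Dok7, and -0.83 and -0.98 for Abca1. For Fabp4 it was 0.74 and 0.56, a difference of 0.18 ± 0.11 (adjusted p = 0.723). Several genes passed with FABP4 and stood near 0 without it, and in none of those given here did the difference pass. Soat1 had 0.37 with and 0.02 without (difference 0.34 ± 0.09, adjusted p = 0.634), and Ly96 had 0.44 and -0.02 (0.45 ± 0.11, adjusted p = 0.584). Tmem69 had -0.71 and 0.06 (-0.77 ± 0.16, adjusted p = 0.558), and Lrrc14 -0.32 and 0.12 (-0.44 ± 0.08, adjusted p = 0.426), the latter call ending without PA+FABP4 array 1. Adm leaned the other way, with 0.93 with and 1.74 without FABP4 (-0.81 ± 0.29, adjusted p = 0.68).

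**Figure D4:**
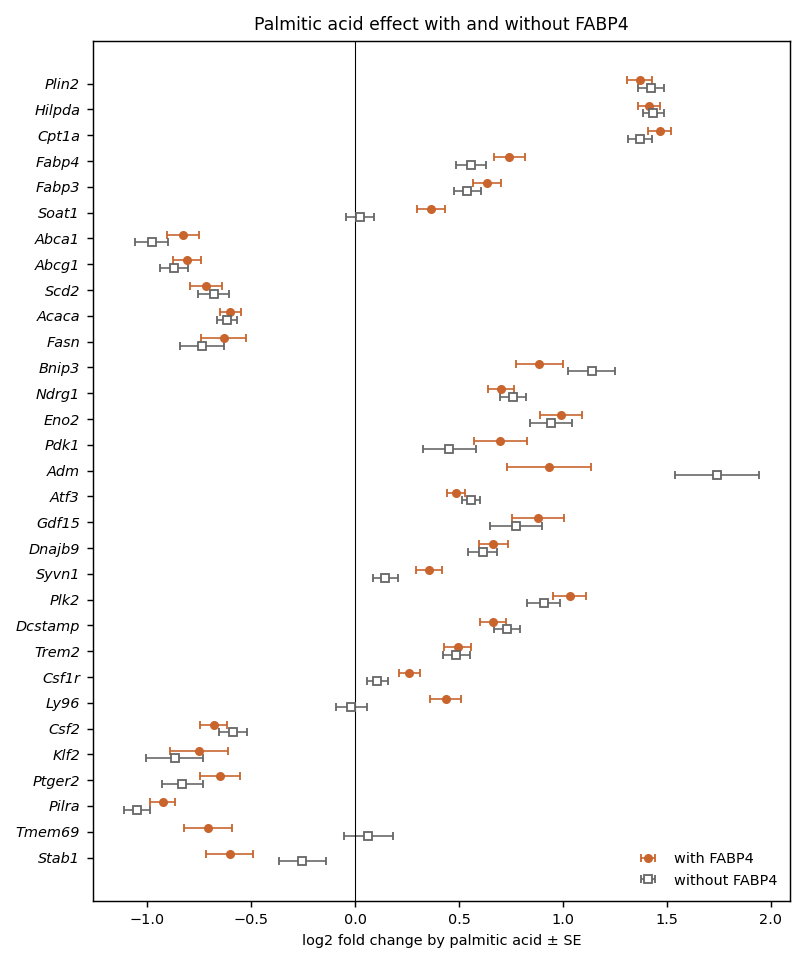
Log2 fold change by palmitic acid ± SE (limma, n = 3 arrays per group) for 31 genes, with FABP4 (filled circles) and without (open squares). Plin2, Hilpda and Acaca have overlapping bars, while Soat1 (0.37 and 0.02), Ly96 (0.44 and -0.02), Tmem69 (-0.71 and 0.06) and Adm (0.93 and 1.74) lie apart, none with a difference that passed.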

How the data were processed

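RNA of 12 samples was measured on 1-colour arrays. The deposited files hold the scanner's processed spot intensity, background-subtracted and detrended within each array by Agilent Feature Extraction 10.7.3.1, per the file headers, with probe positions on mm9. A deposited value table of intensity differed from it by at most 0.005. From 50 ng of RNA per array, per the labels' protocols, nothing was pooled.

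Spots marked as controls or outliers were dropped, spots of a probe averaged, intensities divided by the array's 75th percentile and log2 taken. A probe was tested where 1 group or more had it well above background on each of its 3 arrays (23911 of 55681 probes), and the brightest tested probe stood for a gene, giving 17596 gene names, 12325 of them current symbols. limma 3.58.1 (R 4.3.3) fitted 4 group means to 12 arrays with eBayes. The slide as a block, other scalings, filters and tools' settings, and each array left out were alternatives. Promoters and symbols came from RefSeq tables; the exon or UTR under a probe was not analysed here.

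Genes were named by a rule: Fabp4, the 8 largest rises and falls called with and without the slide block, up to 4 members of each of 34 gene lists with the smallest p, a fixed set of lipid and inflammation genes, the 4 largest rises and falls lost with the block, and the 6 smallest interaction p. The members and lists were chosen with earlier results of these data known. Some genes that the rule names are not reported here.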

Additional observations from a re-analysis of the deposited data

How the results depend on the processing

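The count of 670 genes changed by palmitic acid with FABP4 was 159 with no scaling between arrays, 185 with no filter on dim probes, 260 with the 8 arrays of slide 2 alone, 94 with the 6 arrays compared, 40 with the 5 of them on slide 2 and 1138 with trended and robust moderation. It ranged from 247 to 601 with each array left out in turn. With the replicate number as a block it was 408, and the difference between the palmitic acid effects gave 0; same-numbered arrays of different groups did not deviate together (correlations from -0.08 to 0.17), so the numbers were not taken as pairs. That difference gave 0 genes as reported, 3 with no scaling, 37 with the slide as a fixed block and 0 to 5 with each array left out. Of 87 genes given with values and a test, 75 were called, and 52 of these stayed called whichever array was left out. Of the 75, 75 stayed called with the slide as a random block, 73 with quantile normalization, 71 with the slide as a fixed block and 71 with the replicate block, against 39 with no scaling and 15 with the 5 arrays on slide 2. Genes that turned their sign had not passed. Acsl1 went to -0.015 with quantile normalization, -0.0075 with the median of tested genes, -0.022 with the 75th percentile of detected probes and -0.078 with no scaling, and ranged from -0.038 without FABP4 array 3 through -0.0016 without FABP4 array 2 to 0.099 with each array left out. Hmgcs1 went to -0.022 with no scaling, Ccl2 to -0.011 with quantile normalization, and Il6 to 0.0046 in each fit that leaves out FABP4 array 1 or blocks the slide, with -0.15 to 0.0046 as each array was left out. The cause of these changes was not tested. Arrays near background limit dim genes, for which bounds are given.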
